A study of Mus musculus with 12 samples.

Results

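Transcripts of 4 genes of ketone body synthesis and export were followed in whole mouse livers: Acat1, Bdh1, Slc16a1 and Slc16a6. They were found by their symbols among the 25611 genes of the count table, and each matched 1 row. RNA came from 12 male C57BL/6J mice aged 8 to 10 weeks, 4 in each of 3 groups, and all livers were taken 30 hr after surgery. Sham mice had an abdominal incision only. CLP mice had cecal ligation and puncture, a model of sepsis in which gut bacteria leak into the abdomen. CLP+DCA mice had the same surgery and were injected at 24 hr with dichloroacetate (DCA), an inhibitor of the pyruvate dehydrogenase kinases, at 25 mg/kg, so that their livers were taken 6 hr after the drug. All mice had received saline under the skin. The labels describe an injection at 24 hr for every group, and what sham and CLP mice were injected with is not given in the sources used here. No sham group given DCA was analysed here, and CLP+DCA mice can be compared with septic and with sham mice only.

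Ketone bodies are made in liver mitochondria from the acetyl-CoA of fatty acid oxidation and serve other organs as fuel when glucose is short. Acat1 opens the route by joining acetyl-CoA units to acetoacetyl-CoA, and Bdh1 ends it by reducing acetoacetate to beta-hydroxybutyrate. Carriers of the SLC16 (monocarboxylate transporter) family then move ketone bodies across the cell membrane, Slc16a1 (MCT1) together with lactate and pyruvate, and Slc16a6 (MCT7) as a liver exporter described in zebrafish.

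Between 24436513 and 44266819 reads per mouse were counted in genes. The library of CLP+DCA replicate 3 stood apart from its group over all genes tested. Its root mean square distance was 0.990 on the log2 scale from the mean of its own group and 0.636 from the CLP mean, whereas the other CLP+DCA mice were 0.409 to 0.509 from their group mean. The comparisons of the 4 genes are therefore given with and without it. Hepatocyte markers were abundant in every liver, at lower levels in CLP than in sham. The summed level of 7 such markers, Alb among them, was 64956 to 84371 CPM in sham and 30288 to 47297 CPM in CLP. In CLP+DCA it was 27374 to 60466.5 CPM, lowest in replicate 3. CPM are counts scaled to a common library size after TMM normalization.

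In the mean both carriers were higher in septic livers, Bdh1 was lower, and Acat1 differed least. Slc16a1 was 2.80-fold higher in CLP versus sham and Slc16a6 1.79-fold higher, and in both every CLP mouse was above every sham mouse. In 3 of the 4 CLP+DCA mice Slc16a1 was at the sham level. CLP+DCA replicate 3 had the highest Slc16a1 and Slc16a6 and the lowest Bdh1 of all 12 mice. In the edgeR fit to all 12 mice these differences did not pass the test, and without CLP+DCA replicate 3 those of both carriers in CLP versus sham did. DESeq2 on all 12 mice called Slc16a1 in CLP versus sham.

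**Figure D1:**
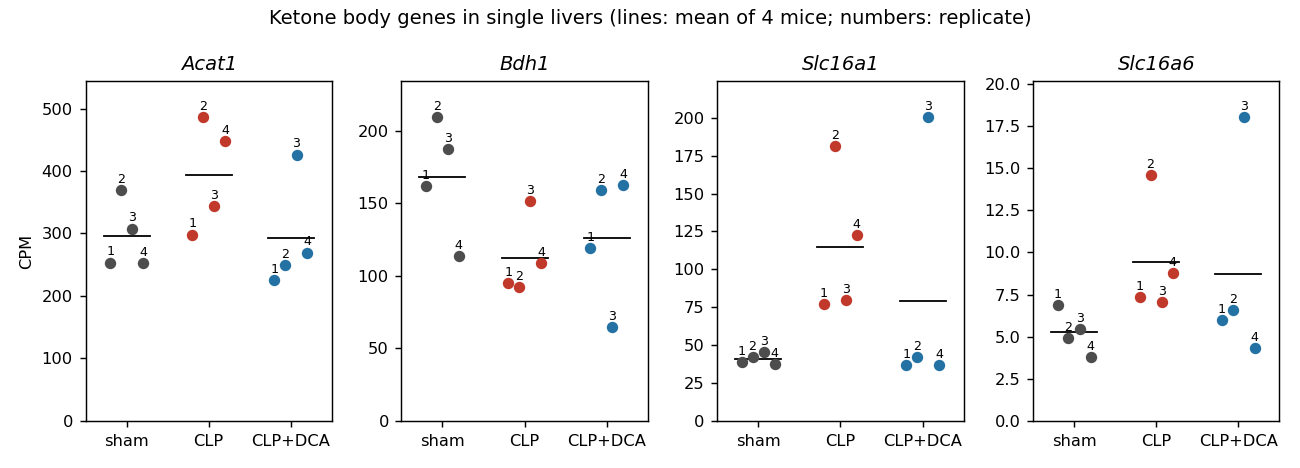
Level of the 4 genes in each liver in CPM (linear axes from 0). Points are single mice with their replicate number, and lines are the means of 4 mice. Slc16a1 was between 37.5 and 45.5 CPM in sham, between 76.9 and 181 CPM in CLP, and at 200.3 CPM in CLP+DCA replicate 3 against 36.9 to 42.2 CPM in the other CLP+DCA mice.

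Slc16a1 (NCBI Gene 20501) lies on the plus strand of mm10 at chr3:104638664-104658462. Its level was 38.9, 42.1, 45.5 and 37.5 CPM in sham replicates 1 to 4. In CLP replicates 1 to 4 it was 76.9, 181, 79.8 and 122 CPM. In CLP+DCA replicates 1 to 4 it was 36.9, 42.2, 200.3 and 37.1 CPM. Sham and CLP did not overlap, and CLP+DCA fell into a mouse above all CLP mice and 3 mice within or just below the sham range. The means were 41.0 ± 3.59 CPM in sham, 115 ± 48.7 CPM in CLP and 79.1 ± 80.8 CPM in CLP+DCA (SD, n = 4), and 38.7 ± 3.03 CPM (SD, n = 3) in CLP+DCA without replicate 3.

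The sequence before the start of Slc16a1 is shown because this gene carried the largest difference of the 4. RefSeq promoter windows (GRCm38.p6) of 250 bases before to 50 after a start were held for Slc16a1 and for 2 starts of Bdh1. The Slc16a1 window had 73.7% G+C and 42 CG pairs, against a median of 52.7% G+C over 32851 mouse windows. The 250 bases before each start shown are on the plus strand, at chr3:104638414-104638663 for Slc16a1 and at chr16:31422047-31422296 for the start of Bdh1 that opens the gene. Capitals mark the motifs found, an E-box (CACGTG) that begins 200 bases before the Slc16a1 start and a TATA-like TTATAA that begins 27 bases before it.
Slc16a1: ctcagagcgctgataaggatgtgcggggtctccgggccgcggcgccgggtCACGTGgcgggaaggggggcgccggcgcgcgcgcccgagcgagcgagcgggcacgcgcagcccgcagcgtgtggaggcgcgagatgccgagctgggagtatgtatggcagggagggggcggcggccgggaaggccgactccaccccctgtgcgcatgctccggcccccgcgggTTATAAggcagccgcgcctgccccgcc
Bdh1: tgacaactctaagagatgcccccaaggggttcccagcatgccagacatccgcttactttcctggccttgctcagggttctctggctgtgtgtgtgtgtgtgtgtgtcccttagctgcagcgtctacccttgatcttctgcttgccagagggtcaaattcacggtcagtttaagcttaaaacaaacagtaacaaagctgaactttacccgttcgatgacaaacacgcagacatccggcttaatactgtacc
On both strands, 7.15% of all windows held the E-box and 5.79% the TATA-like letters. Other motifs searched were AGGTCA, a site bound by nuclear receptors (16.3% of windows), its direct repeat with 1 base between (0.0396%), which holds AGGTCA itself, the cyclic AMP response element TGACGTCA (1.79%), the STAT motif TTCNNNGAA (8.30%) and the palindromic glucocorticoid response element (0.00913%). None of these 5 was in the Slc16a1 window, and none of the 7 was in either Bdh1 window.

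Slc16a6 (NCBI Gene 104681) lies on the minus strand of mm10 at chr11:109450856-109473596. Of its 4529 exon bases, 659 are shared with exons of overlapping genes (Amz2, Arsg and the miRNA gene Gm25540 overlap it), and the library kit does not mark strand, so part of its reads is of uncertain origin. Its level was 6.88, 4.90, 5.45 and 3.78 CPM in sham replicates 1 to 4. In CLP replicates 1 to 4 it was 7.35, 14.6, 7.04 and 8.76 CPM. In CLP+DCA replicates 1 to 4 it was 5.97, 6.55, 18.0 and 4.33 CPM. Its lowest CLP value was just above its highest sham value, and CLP+DCA replicate 3 was again above every other mouse. These levels rest on 136 to 665 reads per mouse, fewer than those of the other genes. The means were 5.25 ± 1.29 CPM in sham, 9.44 ± 3.52 CPM in CLP and 8.71 ± 6.27 CPM in CLP+DCA (SD, n = 4), and 5.62 ± 1.15 CPM (SD, n = 3) in CLP+DCA without replicate 3.

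Acat1 (NCBI Gene 110446) lies on the minus strand of mm10 at chr9:53580522-53610350. Besides its step in ketone body synthesis it splits the last intermediate of isoleucine breakdown. Its level was 253, 370.0, 308 and 252 CPM in sham replicates 1 to 4. In CLP replicates 1 to 4 it was 298, 486, 343 and 447 CPM. In CLP+DCA replicates 1 to 4 it was 225, 249, 426 and 269 CPM. Sham and CLP overlapped, since CLP replicates 1 and 3 were within the sham range, and 3 CLP+DCA mice were below every CLP mouse. The means were 296 ± 55.8 CPM in sham, 394 ± 87.6 CPM in CLP and 292 ± 91.0 CPM in CLP+DCA (SD, n = 4), and 248 ± 22.0 CPM (SD, n = 3) in CLP+DCA without replicate 3.

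Bdh1 (NCBI Gene 71911) lies on the plus strand of mm10 at chr16:31422297-31458901, and 533 of its 3648 exon bases are shared with the antisense gene Gm15743. Its level was 161, 209, 187 and 113 CPM in sham replicates 1 to 4. In CLP replicates 1 to 4 it was 94.9, 92.3, 152 and 109 CPM. In CLP+DCA replicates 1 to 4 it was 119, 159, 64.6 and 162 CPM. The values of CLP replicates 1, 2 and 4 were under those of all sham mice, and that of CLP replicate 3 was inside the sham range. The means were 168 ± 41.1 CPM in sham, 112 ± 27.5 CPM in CLP and 126 ± 45.5 CPM in CLP+DCA (SD, n = 4), and 147 ± 24.0 CPM (SD, n = 3) in CLP+DCA without replicate 3.

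Per length, on the scale of CPM per kb of exon, the order of levels in sham livers was Acat1 (86.9 ± 16.4), Bdh1 (46.0 ± 11.3), Slc16a1 (9.26 ± 0.810) and Slc16a6 (1.16 ± 0.285, SD, n = 4), and no neighbours in this order overlapped. In CLP livers Bdh1 (25.3 to 41.6 CPM per kb) and Slc16a1 (17.4 to 40.9 CPM per kb) overlapped. In CLP replicate 2 and in CLP+DCA replicate 3 Slc16a1, at 40.9 and 45.2 CPM per kb, was above Bdh1, at 25.3 and 17.7 CPM per kb.

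CLP versus sham asks how sepsis changed the 4 genes. The log2 fold change of Slc16a1 was 1.49 (standard error 0.53, adjusted p = 0.104), with an approximate 95% interval of 0.44 to 2.53. Slc16a6 was higher by 0.84 (standard error 0.42, adjusted p = 0.202) and Acat1 by 0.41 (standard error 0.23, adjusted p = 0.245). Bdh1 fell by 0.58 in the mean (standard error 0.29, adjusted p = 0.198). These are edgeR quasi-likelihood tests on all 12 mice, adjusted over 13190 genes by Benjamini-Hochberg. None of the 4 genes passed a false discovery rate of 0.05, which 2.78% of all genes passed, 216 higher and 151 lower (100 and 109 with scaling by library size alone), and 1 of the 4, Slc16a1, had an unadjusted p under 0.05, as had 28.6% of all genes. The 4 genes had a median log2 fold change of 0.63, against 0.02 over all genes tested. Since these are bulk livers, fewer cells of a type and less RNA per cell cannot be told apart.

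Without CLP+DCA replicate 3 the same CLP and sham mice gave nearly the same fold changes with smaller errors. Slc16a1 was higher by 1.49 (standard error 0.24, adjusted p = 0.0037, edgeR) and Slc16a6 by 0.84 (standard error 0.25, adjusted p = 0.035, edgeR), and both passed. Bdh1 (adjusted p = 0.060, edgeR) and Acat1 (adjusted p = 0.10, edgeR) did not. CLP replicate 3 stood out by its Oxct1 and Pdk4 and was also the CLP mouse with the highest Bdh1, at 152 CPM. It was chosen after seeing the data, and leaving it out lowers the mean of Bdh1 in CLP. With it left out besides CLP+DCA replicate 3, Bdh1 fell by 0.76 (adjusted p = 0.013, edgeR), in a fit that called 31.1% of all genes. The 2 of 4 genes called without CLP+DCA replicate 3 alone stand beside 23.8% of all 13288 genes tested in that fit, 12.2% being higher. By DESeq2 on the 8 sham and CLP mice alone, Slc16a1 (adjusted p = 1.0e-06), Slc16a6 (adjusted p = 0.018) and Bdh1 (adjusted p = 0.041) passed, beside 23.3% of all genes. By DESeq2 on all 12 mice Slc16a1 passed (adjusted p = 0.030), beside 1894 of 14517 genes. By voom with sample weights on all 12 mice Slc16a1 (adjusted p = 0.0038) and Bdh1 (adjusted p = 0.028) passed, beside 3453 of 13190 genes. Two-sided exact permutation tests of log2 CPM, 4 against 4 mice, gave p = 0.029 for Slc16a1 and for Slc16a6, the smallest p that this design allows. These exact tests gave p = 0.057 for Bdh1 and p = 0.14 for Acat1 (12 such tests were run, unadjusted). Both carriers belonged to the 26.5% of genes whose sham and CLP values did not overlap.

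**Figure D2:**
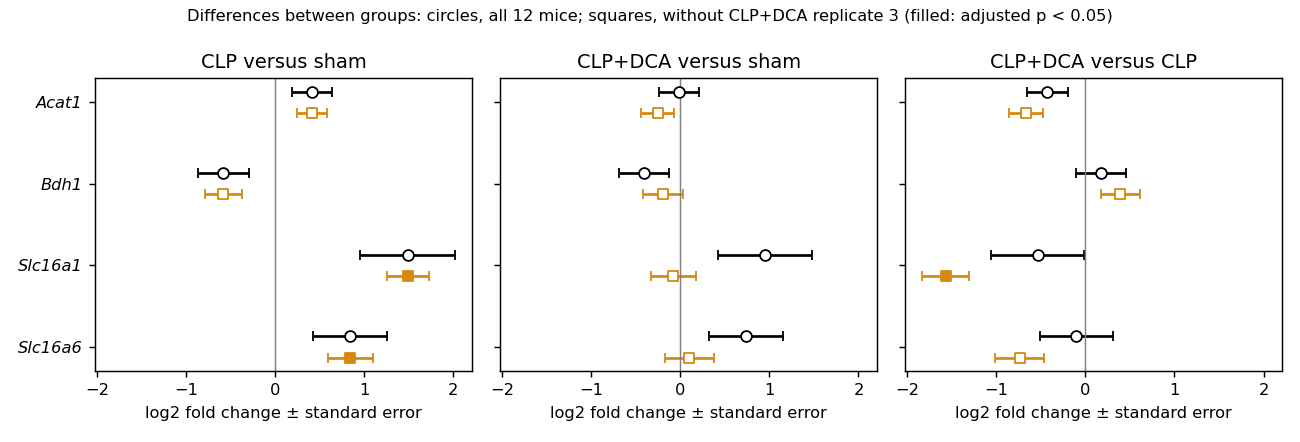
Log2 fold changes with standard errors from edgeR for the 4 genes (rows) in the 3 comparisons (panels). Circles are the fit to all 12 mice, squares the fit without CLP+DCA replicate 3, and filled symbols have an adjusted p under 0.05. No circle is filled, and the filled squares are Slc16a1 (1.49) and Slc16a6 (0.84) in CLP versus sham and Slc16a1 (-1.57) in CLP+DCA versus CLP.

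CLP+DCA versus CLP asks how septic mice given DCA differed from septic mice without it. Over all 12 mice the log2 fold change of Slc16a1 was -0.54 (standard error 0.52, adjusted p = 0.757, edgeR). Acat1 was at -0.43 (adjusted p = 0.558, edgeR), Slc16a6 at -0.10 (adjusted p = 0.945, edgeR) and Bdh1 at 0.17 (adjusted p = 0.870, edgeR). None of the 4 passed, beside 0.00758% of all genes, and none had an unadjusted p under 0.05. Without CLP+DCA replicate 3, Slc16a1 fell by 1.57 (standard error 0.26, adjusted p = 0.019, edgeR), and this was the 1 call among the 4 beside 4.64% of all genes (2.63% lower). In that fit Acat1 was at -0.67 (adjusted p = 0.060, edgeR), Slc16a6 at -0.74 (adjusted p = 0.11, edgeR) and Bdh1 at 0.39 (adjusted p = 0.26, edgeR). With CLP replicate 3 left out too, again after seeing the data, Acat1 fell by 0.73 (adjusted p = 0.031, edgeR), beside 16.9% of all genes. That CLP mouse was within the sham range in Acat1 (343 CPM). The remaining 3 CLP+DCA mice did not overlap the CLP mice in Slc16a1, Slc16a6 and Acat1, and 22.8% of all genes did not overlap in this way. Each replicate was left out in turn, and this fit is given beside the full one because that library stood apart over all genes.

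CLP+DCA versus sham asks what difference from sham remained in septic mice given DCA, and it uses the same sham mice as the first comparison. None of the 4 genes was called, beside 0.0379% of all genes, and none had an unadjusted p under 0.05. Over all 12 mice the log2 fold change was 0.95 for Slc16a1 (standard error 0.53, adjusted p = 0.446, edgeR), 0.74 for Slc16a6 (adjusted p = 0.451, edgeR), -0.41 for Bdh1 (adjusted p = 0.532, edgeR) and -0.02 for Acat1 (adjusted p = 0.979, edgeR). Without CLP+DCA replicate 3 Slc16a1 was at -0.08 (95% interval -0.58 to 0.41) and Slc16a6 at 0.10 (95% interval -0.44 to 0.64). Bdh1 was then at -0.19 (95% interval -0.63 to 0.24) and Acat1 at -0.26 (95% interval -0.62 to 0.11). None passed, beside 0.0828% of genes, and the intervals leave room for differences of these sizes.

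Ratios of reads within a mouse do not depend on the scaling of the library. Per read of Slc16a1 there were 3.02 to 4.97 reads of Bdh1 in sham, 0.509 to 1.90 in CLP, 3.23 to 4.38 in CLP+DCA replicates 1, 2 and 4 and 0.323 in CLP+DCA replicate 3. This ratio separated the CLP mice and CLP+DCA replicate 3 from all other mice, as the level of Slc16a1 alone already did. Per read of Acat1 there were 0.449 to 0.637 reads of Bdh1 in sham, 0.190 to 0.441 in CLP, 0.529 to 0.637 in the same 3 CLP+DCA mice and 0.152 in CLP+DCA replicate 3. The synthesis genes at the first and the last step thus stood in a lower ratio in every CLP mouse than in any sham mouse, by a narrow margin in CLP replicate 3. The ratios are given with no test.

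The other enzymes and carriers of the pathway were 8 genes, and all were tested. By edgeR none was called in any comparison over all 12 mice, and 2 of 8 had an unadjusted p under 0.05 in each, beside 28.6% of all genes in CLP versus sham, 13% in CLP+DCA versus sham and 10% in CLP+DCA versus CLP. In CLP versus sham 2 were higher and 6 lower in the mean, with a median log2 fold change of -0.26. Bdh2, a cytosolic relative of Bdh1 by name, was between 10.1 and 13.6 CPM in sham, 1.20 and 5.44 CPM in CLP, and at 10.1, 8.27, 0.785 and 11.6 CPM in CLP+DCA replicates 1 to 4. All CLP mice were below all sham mice, as were CLP+DCA replicates 2 and 3 and, by a margin that the rounding hides, replicate 1. Its log2 fold change in CLP versus sham was -1.98 (standard error 0.62, adjusted p = 0.0811, edgeR). Without CLP+DCA replicate 3 Bdh2 fell by 1.97 (adjusted p = 0.0052, edgeR), and in CLP+DCA versus CLP it rose by 1.68 (adjusted p = 0.033, edgeR). Acat2, the cytosolic thiolase that feeds sterol synthesis, was between 58.9 and 68.3 CPM in sham, 45.3 and 59.8 CPM in CLP and 37.6 and 44.0 CPM in CLP+DCA. All 4 CLP+DCA mice were below all other mice in Acat2, with a log2 fold change of -0.62 against sham (standard error 0.10, adjusted p = 0.0577, edgeR).

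Oxct1 and Bsg were named after their values were seen. Oxct1, which uses ketone bodies in other organs and is scarce in hepatocytes, was 29.4 CPM in CLP replicate 3 and 1.72 to 4.34 CPM in the other 11 mice, so that its mean in CLP rests on 1 mouse. Bsg, the partner that carries Slc16a1 to the membrane, was between 276 and 415 CPM in all mice, with a log2 fold change of -0.03 in CLP versus sham (95% interval -0.29 to 0.23, adjusted p = 0.886, edgeR).

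**Figure D3:**
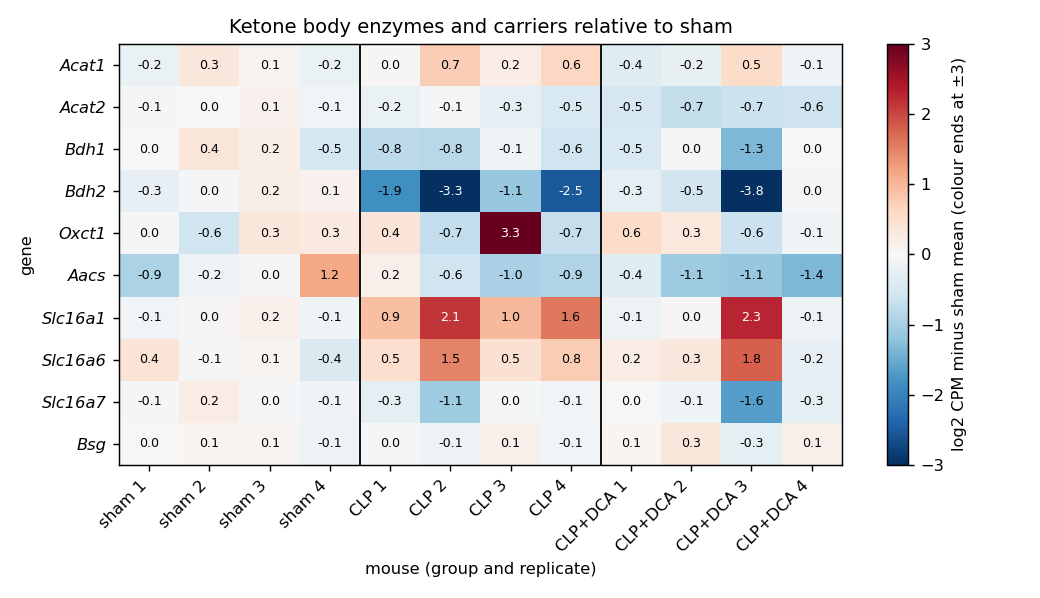
Log2 CPM of 10 ketone body enzymes and carriers (rows) in each of the 12 mice (columns) minus the sham mean, printed in each cell and coloured with the ends at -3 and 3. CLP+DCA replicate 3 carries a higher Slc16a1 and Slc16a6 and a lower Bdh1 and Bdh2 like CLP replicates 2 and 4, while in CLP+DCA replicates 1, 2 and 4 these genes lie between -0.54 and 0.35.

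Among all 14 genes of the SLC16 family, 12 were tested and none was called by edgeR over all 12 mice, 4 having an unadjusted p under 0.05 in CLP versus sham (28.6% of all genes had). The median log2 fold change of the family in CLP versus sham was -0.29, with 5 genes higher and 7 lower. Without CLP+DCA replicate 3 the called genes were Slc16a1, Slc16a6 and Slc16a3 (MCT4, known as a lactate exporter), all of them higher. These 3 of 12 stand beside 23.8% of all genes called in that fit. Slc16a3 was between 0.186 and 0.371 CPM in sham and 0.539 and 1.35 CPM in CLP. Its log2 fold change was 1.498 (adjusted p = 0.157 with all mice and 0.017 without CLP+DCA replicate 3, edgeR). These values rest on few reads. Slc16a4, a carrier without a settled substrate, was at -0.55 in CLP versus sham (adjusted p = 0.153, edgeR).

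**Figure D4:**
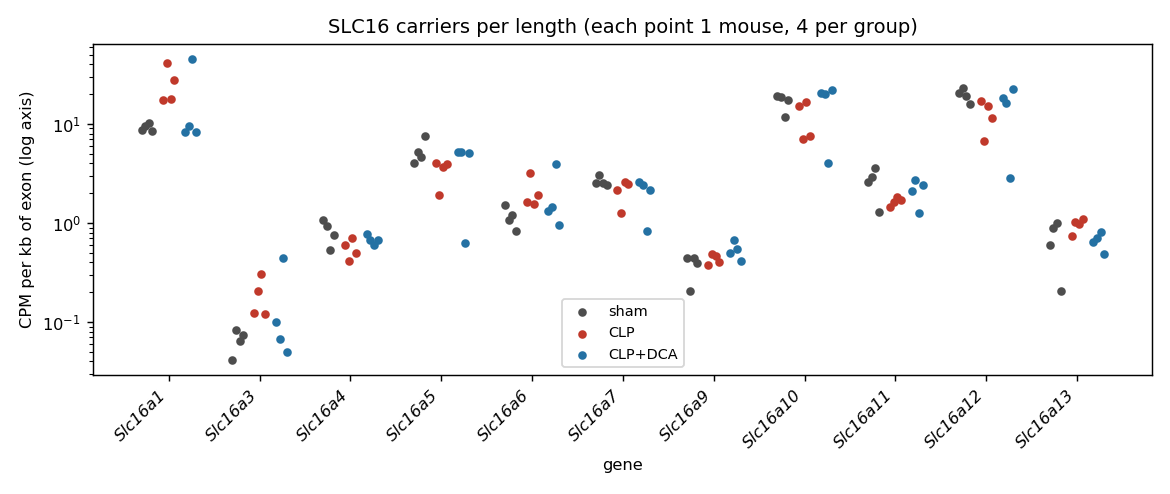
Level of 11 tested SLC16 carriers in CPM per kb of exon on a log axis, each point 1 mouse, in sham, CLP and CLP+DCA. In sham Slc16a1 (mean 9.26) lay below Slc16a12 (19.7) and Slc16a10 (16.8), and in CLP the means were 26.0 for Slc16a1, 12.6 for Slc16a12 and 11.6 for Slc16a10.

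The genes that supply acetyl-CoA by mitochondrial fatty acid oxidation did not move together. Of 12 genes none was called over all 12 mice by edgeR, none had an unadjusted p under 0.05 in CLP versus sham, 6 were higher and 6 lower in CLP versus sham, and their median log2 fold change was 0.00. Echs1, the hydratase of short acyl chains, was at -0.33 (adjusted p = 0.231, edgeR) and fell by 0.33 without CLP+DCA replicate 3 (adjusted p = 0.033, edgeR). Slc25a20, which carries acylcarnitines into mitochondria, was at 0.28 (adjusted p = 0.251, edgeR). In isoleucine breakdown, the route that Acat1 ends, none of 7 genes was called over all 12 mice by edgeR, 2 had an unadjusted p under 0.05 (28.6% of all genes had), 6 of the 7 were lower in CLP versus sham, and the median was -0.33. Acadsb, which oxidises the branched acyl chain, was at -0.63 (adjusted p = 0.137, edgeR), and Dbt, a subunit of the branched-chain keto acid dehydrogenase, was at -0.53 (adjusted p = 0.174, edgeR). Without CLP+DCA replicate 3, 5 of these 7 were called lower, beside 11.5% of all genes in that fit, and Acat1 was at 0.41.

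None of 10 regulators of ketone body synthesis was called by edgeR over all 12 mice, and 3 had an unadjusted p under 0.05 in CLP versus sham, near the 28.6% of all genes. Ppara, the fatty acid receptor that drives ketogenic genes in fasting, was between 287 and 413 CPM in sham and 130 and 238 CPM in CLP, with no overlap. Its log2 fold change was -0.83 (adjusted p = 0.0869, edgeR), and it fell by 0.83 without CLP+DCA replicate 3 (adjusted p = 0.022, edgeR). Creb3l3, a liver transcription factor of fasting, was at 0.40 (adjusted p = 0.125, edgeR). Of 12 genes known to respond to PPARA, none was called by edgeR over all 12 mice, 3 had an unadjusted p under 0.05, again near that share, and 9 were higher in CLP versus sham with a median of 0.57. Angptl4, a secreted lipase inhibitor, was at 1.25 (adjusted p = 0.0516, edgeR). Pdk4, a target kinase of DCA, was at 4.03 (adjusted p = 0.0695, edgeR), and of its CLP values, 2.67, 18.2, 151 and 9.38 CPM in replicates 1 to 4, the third stood far above the rest.

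The genes whose pattern was most like each of the 4 were taken by Pearson's r of log2 CPM over the 12 mice, among 9087 genes of at least 5 CPM in the mean. For Slc16a1 they were Plekha1 (r = 0.982), S100a11 (r = 0.979) and Col4a1 (r = 0.979). For Slc16a6 they were Arf2 (r = 0.969), Ctps (r = 0.968) and Vasp (r = 0.962). For Bdh1 they were Acads (r = 0.965), 0610009O20Rik (r = 0.963) and Cyp2d40 (r = 0.956), and for Acat1 Efna5 (r = 0.977), 4930402H24Rik (r = 0.940) and Tmem56 (r = 0.939). All points share the 12 libraries and their scaling, and CLP+DCA replicate 3 lies at an end of each pattern but that of Acat1. Without that mouse these r were between 0.935 and 0.977. By rank over the 12 mice, Spearman's rho was lower for the genes named for Slc16a1, at 0.755, 0.846 and 0.811. For the genes named for the other members rho was 0.881 to 0.993.

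Acute phase genes, most of them coding for plasma proteins that the liver makes in inflammation, moved with the carriers. Their score, the mean log2 CPM of 29 genes minus the sham mean, was -0.11 to 0.05 in sham, 1.61 to 2.77 in CLP, 0.78 to 1.32 in CLP+DCA replicates 1, 2 and 4 and 2.72 in CLP+DCA replicate 3. In CLP versus sham 15 of the 29 were called higher and none lower, beside 1.64% of all genes called higher, and the smallest adjusted p was that of Saa3 (8.75 on the log2 scale, adjusted p = 0.0015, edgeR). In the fit without CLP+DCA replicate 3, 25 of the 29 were called higher, beside 12.2% of all genes. The 5 mice with the highest score were also the 5 with the highest Slc16a1. CLP+DCA replicates 1, 2 and 4 had a score above every sham mouse but Slc16a1 at 36.9 to 42.2 CPM, against 37.5 to 45.5 CPM in sham. The part of inflammation in the levels of the 4 genes was not tested.

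**Figure D5:**
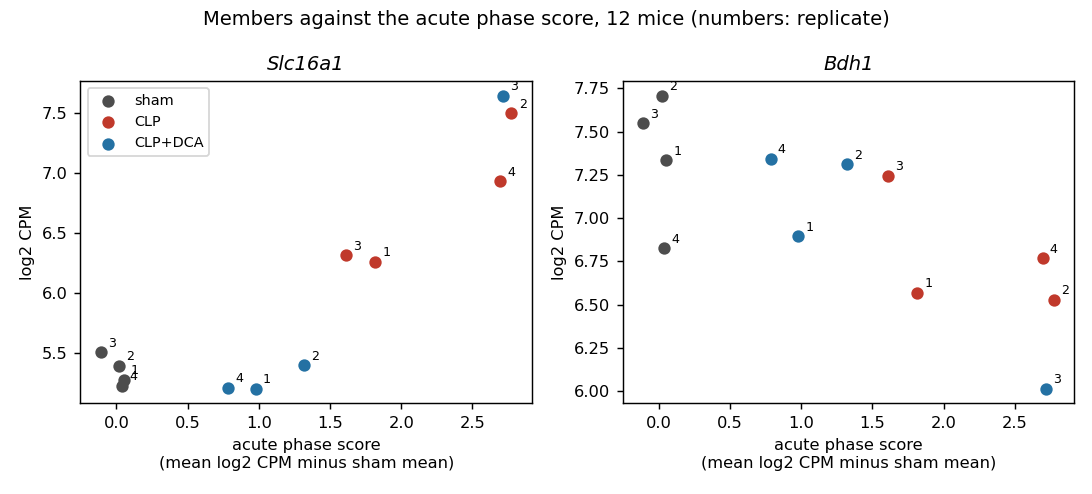
Log2 CPM of Slc16a1 (left) and Bdh1 (right) against the acute phase score of each mouse, the mean log2 CPM of 29 genes minus the sham mean, with replicate numbers. CLP+DCA replicates 1, 2 and 4 lie at scores of 0.78 to 1.32 with Slc16a1 at the sham level, and CLP+DCA replicate 3 lies with CLP replicates 2 and 4 at a score of 2.72.

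Some markers of other cell types were higher in CLP livers, as was Slc16a1, which many cell types express. The sums of neutrophil markers and of stellate cell and bile duct markers were, like Slc16a1, highest in CLP+DCA replicate 3. By the mean log2 CPM of the tested markers minus the sham mean, CLP replicate 3 was highest in both, at 1.75 and 1.09. CLP+DCA replicate 3 was then at 1.39 and 0.594. Within CLP, replicate 2 had the highest Slc16a1 (181 CPM) and the highest neutrophil sum (37.0 CPM). Replicate 3, with Slc16a1 at 79.8 CPM, had the highest stellate cell and bile duct sum in CLP (141 CPM). CLP replicate 4, with Slc16a1 at 122 CPM, had the lowest CLP value of both sums. The sums of Kupffer cell and endothelial markers were not highest in CLP+DCA replicate 3. The 8 neutrophil markers summed to 6.40 to 9.11 CPM in sham, 28.6 to 37.0 CPM in CLP, 45.4 CPM in CLP+DCA replicate 3 and 6.45 to 13.7 CPM in the other CLP+DCA mice. Of 7 tested, 6 were higher in CLP versus sham in the mean, and 1 was called with all mice and 5 without CLP+DCA replicate 3, where 12.2% of all genes were called higher. The gene called with all mice was Retnlg (3.10 on the log2 scale, adjusted p = 0.025, edgeR), S100a8 was at 2.84 (adjusted p = 0.0568, edgeR), and the neutrophil surface gene Ly6g was between 0.269 and 0.701 CPM in CLP against 0.669 to 1.04 CPM in sham.

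The 6 stellate cell and bile duct markers summed to 58.4 to 93.4 CPM in sham, 86.2 to 141 CPM in CLP, 178 CPM in CLP+DCA replicate 3 and 73.7 to 79.8 CPM in the other CLP+DCA mice. Of these 6 none was called with all mice and 4 were called higher without CLP+DCA replicate 3, with Krt19 at 1.44 (adjusted p = 0.0544 with all mice, edgeR) and Krt7 at 1.23 (adjusted p = 0.0980 with all mice, edgeR). The 6 Kupffer cell markers summed to 123 to 211 CPM in sham and 196 to 261 CPM in CLP. In CLP+DCA replicates 1 to 4 their sum was 326, 319, 171 and 165 CPM, and Slc16a1 was 36.9, 42.2, 200.3 and 37.1 CPM. Marco was at 2.56 in CLP versus sham (adjusted p = 0.0554, edgeR) and Timd4 at 0.40 (adjusted p = 0.485, edgeR), and of the 6 Marco alone was called without CLP+DCA replicate 3. The 5 endothelial markers summed to 81.8 to 104 CPM in sham, 96.9 to 120.0 CPM in CLP, 99.3 CPM in CLP+DCA replicate 3 and 78.9 to 116 CPM in the other CLP+DCA mice. In CLP versus sham 3 of the 5 were higher and 2 lower, with a median of 0.06. Lyve1 was at 2.29 (adjusted p = 0.0630, edgeR) and Pecam1 at 1.11 (adjusted p = 0.0664, edgeR), and these 2 were called without CLP+DCA replicate 3. Stab2 was at 0.06, Clec4g at -0.02 and Kdr at -0.33.

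The 6 lymphocyte markers summed to at most 3.29 CPM in any mouse, with Cd79a at -1.54 (adjusted p = 0.169, edgeR). Of 4 erythroid markers Hbb-bt and Hba-a1 are listed at 0 in all mice, and Alas2 was at -0.94 (adjusted p = 0.0860, edgeR). All 7 hepatocyte markers were lower in CLP versus sham in the mean, with Alb called (-1.11, adjusted p = 0.0463, edgeR) and Ttr at -0.60 (adjusted p = 0.0815, edgeR). The counts called lower without CLP+DCA replicate 3 were 3 of 7 hepatocyte markers, 2 of 3 lymphocyte markers tested and 1 of 1 erythroid marker tested, beside 11.5% of all genes. The part of these cell types in the levels of the 4 genes was not tested.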

How the data were processed

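Whole livers of 12 mice were profiled by RNA-seq, 4 each in sham, CLP and CLP+DCA, grouped by their labels. The authors prepared poly(A) libraries, used STAR 2.5 to align paired-end reads to mm10, and obtained gene counts from featureCounts in Subread 1.5.0-p1. The deposited table holds these counts, not normalized, for 25611 genes. The annotation and strand setting of the counting are not given in the sources used here. Counts were filtered with filterByExpr (minimum count 10) and fitted to all 12 mice with edgeR 4.0.16 (robust quasi-likelihood, TMM, R 4.3.3), and P values were adjusted by Benjamini-Hochberg over 13190 genes at 0.05. DESeq2 1.42.0 and limma 3.58.1 (voom) were alternatives. Log2 CPM used a prior count of 2. The standard error is the log2 fold change over the square root of F. The 95% intervals are a normal approximation from this standard error, so they are narrower than the p of the same test implies. Exon lengths came from GENCODE M21, so levels per kb are approximate.

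In simulated CLP versus sham counts over 13190 genes, edgeR recovered 200 of 200 changed genes, with 5 wrong calls, and DESeq2 on 12 mice 200 with 29 wrong calls. Recovery at the fold changes and standard errors of the 4 genes was not tested. Between 24436513 and 44266819 reads were counted per mouse, and reads without molecular identifiers carry more than counting error. The 4 genes and the lists were chosen with earlier results of these data known. Named were the 4 genes and, from each other list, genes past the threshold over all 12 mice (at most 4), or else the 2 with the smallest unadjusted p in CLP versus sham. Fold changes of low genes depend on few reads. Some genes of the lists are counted in them but not reported here by name.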

Additional observations from a re-analysis of the deposited data

Results flagged for a closer look

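Within the groups of 4 mice, 36 sets of values were tested for a mouse far from the rest (Dixon's gap over range, at its 95% critical value), and 3 passed, where chance gives about 1 in 20. All 3 were CLP+DCA replicate 3. For Slc16a1 its gap to the next CLP+DCA mouse was 0.920 of the group's range (200.3 CPM against 36.9 to 42.2 CPM). For Bdh2 it was 0.870 (0.785 CPM against 8.27 to 11.6 CPM), and for Slc16a7, another monocarboxylate carrier (MCT2), 0.836 (9.61 CPM against 24.7 to 29.7 CPM). The carriers did not move together in this mouse, since Slc16a1 and Slc16a6 were above and Slc16a7 was below every other mouse.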

How the results depend on the processing

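By edgeR over all 12 mice none of the 4 genes was called in CLP versus sham. The number called was 1 by edgeR on the 8 mice compared and by DESeq2 on all 12 mice (Slc16a1 in both), 2 by voom with sample weights (Bdh1 and Slc16a1), 3 by DESeq2 on 8 mice (Bdh1, Slc16a1 and Slc16a6), and 0 to 3 when replicates were left out. In CLP+DCA versus CLP it was 2 by voom (Acat1 and Slc16a1) and 0 to 2 when replicates were left out, and in CLP+DCA versus sham it stayed at 0. These calls stand beside many others. In CLP versus sham, edgeR on 8 mice called 2387 of 13079 genes and DESeq2 on 12 mice 1894 of 14517. Voom called 3453 of 13190 genes there and DESeq2 on 8 mice 3428 of 14683. In CLP+DCA versus CLP voom called 1341 of 13190 genes. Among the other 8 enzymes and carriers, the count in CLP versus sham was 1 by both edgeR and DESeq2 on 8 mice, by DESeq2 on 12 and by voom (Bdh2), and 0 to 1 with replicates left out. In CLP+DCA versus sham it was 1 by both DESeq2 fits and voom (Acat2), and 0 to 1 with replicates left out. In CLP+DCA versus CLP it was 1 by DESeq2 on 12 mice (Acat2), by voom (Bdh2) and by DESeq2 on 8 mice, and 0 to 2 with replicates left out. Leaving out CLP replicate 3, the CLP mouse with the highest Bdh1, together with CLP+DCA replicate 3 was a choice made after seeing the data. This choice gave 3 of the 4 genes in CLP versus sham (Bdh1, Slc16a1 and Slc16a6) and 2 in CLP+DCA versus CLP (Acat1 and Slc16a1), beside 31.1% and 16.9% of all genes. Without CLP replicate 2 alone, Acat2 was called in CLP+DCA versus sham. The cause was not tested.

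In CLP versus sham the log2 fold changes of all 4 genes kept their sign under 24 alternatives, with 1.18 to 1.64 for Slc16a1, 0.55 to 0.995 for Slc16a6, 0.22 to 0.54 for Acat1 and -0.77 to -0.46 for Bdh1. Signs turned in the other comparisons. In CLP+DCA versus sham Slc16a1 was -0.049 by voom and -0.083 to 1.18 with replicates left out (exact permutation p = 0.34 to 0.94, and 0.43 without CLP+DCA replicate 3), and Acat1 was -0.26 to 0.11 with replicates left out (0.11 and 0.0014 without sham replicates 2 and 3, and 0.088, 0.062 and 0.020 without CLP+DCA replicates 1, 2 and 4; exact permutation p = 0.23 to 0.94, and 0.80 to 0.91 where it turned). In CLP+DCA versus CLP Slc16a6 was -0.86 to 0.18, with 0.18 without CLP replicate 2 and 0.039, 0.0044 and 0.12 without CLP+DCA replicates 1, 2 and 4, and the exact permutation p of Bdh1 was 0.97 and 0.94 where its sign turned. In CLP versus sham the exact permutation p of Slc16a6 was 0.057 to 0.086 without one of 6 mice.

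All genes called in CLP versus sham were 367, 209 with library size alone, which moved the median of all genes from 0.02 to -0.15, 122 without the low-count filter, 1894 and 3428 by DESeq2 on 12 and 8 mice, 2387 by edgeR on 8, 3453 by voom, and 10 to 3157 with 1 mouse left out, 3157 being without CLP+DCA replicate 3, 990 without CLP replicate 3 and 10 to 34 without a sham mouse. In CLP+DCA versus sham they were 5, 0 by edgeR on 8 mice (with 247, 169 and 496 by DESeq2 on 12, on 8 and by voom), and in CLP+DCA versus CLP 1, 0 by edgeR on 8 mice, 136, 80 and 1341.

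Nothing in the labels ties mice of one replicate number together. Deviations of same-numbered mice from their group means correlated at -0.46 to 0.55. These values cannot settle whether such mice shared a batch, because CLP+DCA replicate 3 weighs on all deviations of its group. With the replicate block 0 of the 4 genes was called in each comparison, Slc16a1 was at 1.505 in CLP versus sham, and 46, 0 and 4 genes were called in all.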
